A study of Mus musculus with 6 samples.

Results

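Solute carriers are membrane proteins that move metals, amino acids, sugars, nucleosides, ions, lipids and vitamins across the plasma membrane and the membranes of organelles. In macrophages they feed the cell and empty the lysosome: amino acids, nucleosides, heme and sugars released from engulfed material leave the digestive compartment through carriers of this kind. Their genes carry symbols that begin with Slc, a family number and a letter.

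The genes described here are those of the deposited table whose symbol begins with Slc and a number, without the mitochondrial Slc25a family and without Slc40a1, Slc11a1, Slc11a2, Slc7a11, Slc2a1 and Slc16a3. The rule found 155 of the 13254 genes in the table. Of these, 142 reached at least 1 CPM (read counts scaled to a common library total) in at least 3 samples and were tested, among 11556 tested genes in all. None of the 142 passed that filter through 1 genotype only (0 genes), and 13 members lay under it. They were sorted by family number into 7 substrate classes. Slc4a1ap and Slc7a6os match the symbol pattern but encode no carrier and stand apart from the classes.

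RNA sequencing was done on bone marrow derived macrophages (BMDMs, macrophages grown in culture from marrow precursors) from knockout mice without the microRNA cluster miR-130b/301b (KO, 3 samples) and from wild-type mice (WT, 3 samples). The strain, age and sex of the mice, the culture time and any stimulus are not given in the sources used here, nor whether the 3 samples of a genotype came from separate animals. The spread that the p-values rest on is thus the one among these samples, and it may be technical. The deleted microRNAs themselves were not analysed here, so the genotypes rest on the labels. The number of reads per library is unknown, which leaves counting error without an interval.

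All 7 macrophage markers were listed, at high levels. The 7 macrophage markers summed to between 19178 and 19862 CPM in KO samples and between 17525 and 18103 CPM in WT samples, without overlap. Lyz2 made up most of these sums, with means of 12163 CPM in KO and 10513 CPM in WT. Cd68, Mertk and Itgam had lower means in KO, and 0 of the 7 passed the test. Of 5 erythroid markers, 0 were listed. Lymphocyte markers (2 of 5 listed) summed to between 0.799 and 1.19 CPM in KO samples and between 1.42 and 1.81 CPM in WT samples. The only dendritic marker listed (1 of 4), Flt3, lay between 0.240 and 0.313 CPM in KO samples and between 0.435 and 0.531 CPM in WT samples. The listed lymphocyte and dendritic markers lay under the filter and were not tested. Stromal markers were lower in KO, with 7 of 8 listed, summing to between 6.27 and 39.6 CPM in KO samples and between 58.4 and 66.1 CPM in WT samples, and 3 of them fell. Osteoclast markers (3 of 5 listed) summed to between 173 and 191 CPM in KO samples and between 218 and 352 CPM in WT samples. WT replicate 1 was the lowest WT sample, and 1 of the markers, Ctsk, fell. Most of each sum was Mmp9, which did not pass the test. Mmp9 stood at 171, 164 and 180 CPM in KO samples and at 204, 334 and 332 CPM in WT samples. Of the 5 listed neutrophil and early myeloid markers 1 fell, and their sums overlapped between genotypes. In bulk RNA, fewer cells of a type and less RNA per cell cannot be told apart, and the part of these markers in the solute carrier values was not tested.

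The deleted cluster encodes miR-130b-3p and miR-301b-3p. The sequence of miR-130b-3p is shown because carrier transcripts were searched for its seed. A microRNA recognises a transcript mainly through its bases 2 to 8, printed in capitals. The sequences are from RefSeq on GRCm38.p6, and the mature miR-130b-3p lies on chromosome 16 at 17124071 to 17124092, minus strand. The sequences used here hold no mature entry for miR-301b-3p, so its seed was not checked. The relatives miR-130a-3p and miR-301a-3p, encoded at other loci, have the same seed as miR-130b-3p. So do miR-130c, miR-721, miR-6341 and miR-6389, which are not printed.
miR-130b-3p: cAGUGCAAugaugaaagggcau
miR-130a-3p: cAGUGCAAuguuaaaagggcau
miR-301a-3p: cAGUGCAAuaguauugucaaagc

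Few solute carrier transcripts hold a match to that seed. The match searched was TTGCACT on the transcript strand of each gene's longest 3′ UTR in GENCODE M21, where 11 of 142 members (7.75%) held it, against 12% of the 10691 tested genes with such a UTR. The median log2 fold change, KO minus WT, was 0.01 for the 11 members with a match and 0.00 for the members without one, and 0 of the 11 passed the test. Slc44a1, a choline carrier, held 2 matches, 1 of them followed by an A. Slc30a7, which loads zinc into the Golgi, also held 2, and Slc24a3, a calcium exchanger that depends on sodium and potassium, held 1. Slc8a1 held 2 as well, with a log2 fold change of -0.03. The sites of Slc44a1, Slc30a7 and Slc24a3 are printed, with the match in capitals and the flanking UTR bases in lower case. These genes were chosen by value, to include higher and lower members. Slc24a3 and Slc30a7 had the largest absolute fold changes of the 11 members with a match.
Slc44a1, first site: tttttaaacttaTTGCACTaaat
Slc44a1, second site: gtgatgatggacTTGCACTtggg
Slc30a7, first site: gtgaaactgattTTGCACTttgt
Slc30a7, second site: tgcatttgtctcTTGCACTtgct
Slc24a3, only site: tggttgcacattTTGCACTggtt
Slc24a3 stood at 18.2, 17.7 and 19.5 CPM in KO samples and at 16.1, 16.5 and 16.1 CPM in WT samples, and Slc30a7 at 47.1, 44.4 and 45.9 CPM in KO samples and at 51.9, 47.9 and 53.0 CPM in WT samples. The groups did not overlap for either gene, Slc24a3 lying higher and Slc30a7 lower in KO, and neither passed (adjusted p = 0.257 and 0.269, limma with Benjamini-Hochberg (BH) adjustment). Slc44a1 stood at 113, 107 and 117 CPM in KO samples and at 105, 107 and 108 CPM in WT samples, with overlapping groups (adjusted p = 0.514).

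Solute carrier transcripts of KO and WT macrophages differed little. Of 142 tested members, 1 rose, Slc37a2, and 1 fell, Slc39a10 (limma on log2(CPM + 1), two-sided, BH-adjusted p under 0.05 over all tested genes). That is 1.41% of the members, beside 1.27% of all tested genes past the same test, so the share is near the background. By direction, 0.485% of all tested genes were higher and 0.787% lower. An unadjusted p under 0.05 was reached by 18 members (12.7%), 5 higher and 13 lower, against 12.5% of all tested genes. Over all tested genes, 605 reached it higher in KO and 844 lower, so the whole table also held more lower genes. The KO and WT samples did not overlap for 27 members (19%), 13 higher and 14 lower, against 17.7% of all tested genes (8.55% higher and 9.1% lower). The median log2 fold change of the members was 0.01, with quartiles at -0.05 and 0.07, and that of all tested genes was 0.00. On the log2(CPM + 1) scale no member changed by 2-fold, while 33 of all tested genes did so and passed the test. That scale understates the change of low genes.

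For each member taken alone, a 95% interval bounds the change as measured on the log2(CPM + 1) scale, which for low members understates it. The intervals are not adjusted over the 142 members. They rest on the spread among these samples, which may be technical. The 95% interval of the log2 fold change lay within 0.5 of 0 for 132 of 142 members (93.0%), against 90.6% of all tested genes, and within 1 of 0 for all 142. For 88 members it lay within 0.25 of 0. Of the 10 members with a wider interval than 0.5, 8 averaged under 5 CPM, among them Slc12a5, Slc49a3 and Slc18a1. In a principal component analysis of the members alone, component 1 (35.9% of the variance) placed KO samples between -0.98 and -0.47 and WT samples between 0.27 and 1.07. Pearson's r across members was between 0.9945 and 0.9969 across genotypes and between 0.9958 and 0.9971 within a genotype, so the ranges overlapped. Over all tested genes those ranges were 0.9915 to 0.9933 and 0.9945 to 0.9962.

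**Figure D1:**
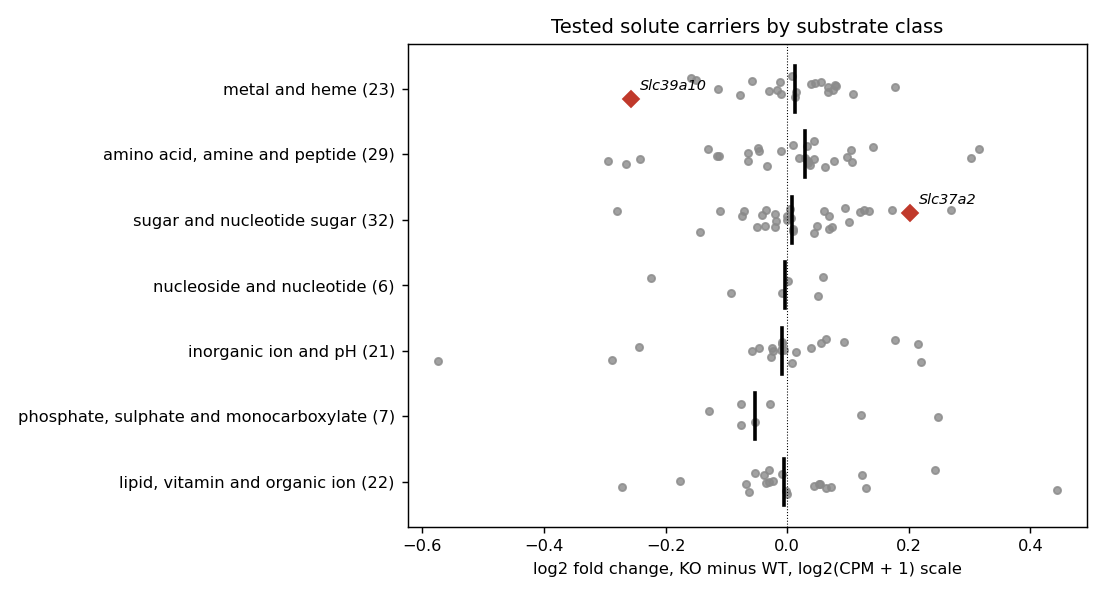
Log2 fold change, KO minus WT, of each tested solute carrier on the log2(CPM + 1) scale, by substrate class with the number tested in brackets; grey points are members that did not pass the test, diamonds the members that did, and black bars class medians. The 7 medians lie close to 0, and Slc39a10 and Slc37a2 are the 2 members past the test.

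Which carriers dominate is best read per transcript length. On the scale of CPM per kilobase of merged exons (GENCODE M21), Slc6a6, the taurine carrier, ranked first among the 142 tested members, with a mean level of 172 in KO and 167 in WT. It was followed by Slc37a2 (101 in KO and 87.6 in WT), by Slc48a1, which carries heme out of the phagolysosome (86.1 in KO and 93.3 in WT), and by the zinc importer gene Slc39a1 (89.2 in KO and 88.4 in WT). Next came Slc43a2, a carrier of large neutral amino acids (74.4 in KO and 74.9 in WT), Slc3a2, the heavy chain of heteromeric amino acid carriers (62.8 in KO and 62.4 in WT), and Slc15a3, a lysosomal carrier of histidine and small peptides (53.4 in KO and 63.4 in WT). Members together made up between 1.01% and 1.03% of the CPM of KO samples and between 0.990% and 1.01% of those of WT samples.

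**Figure D2:**
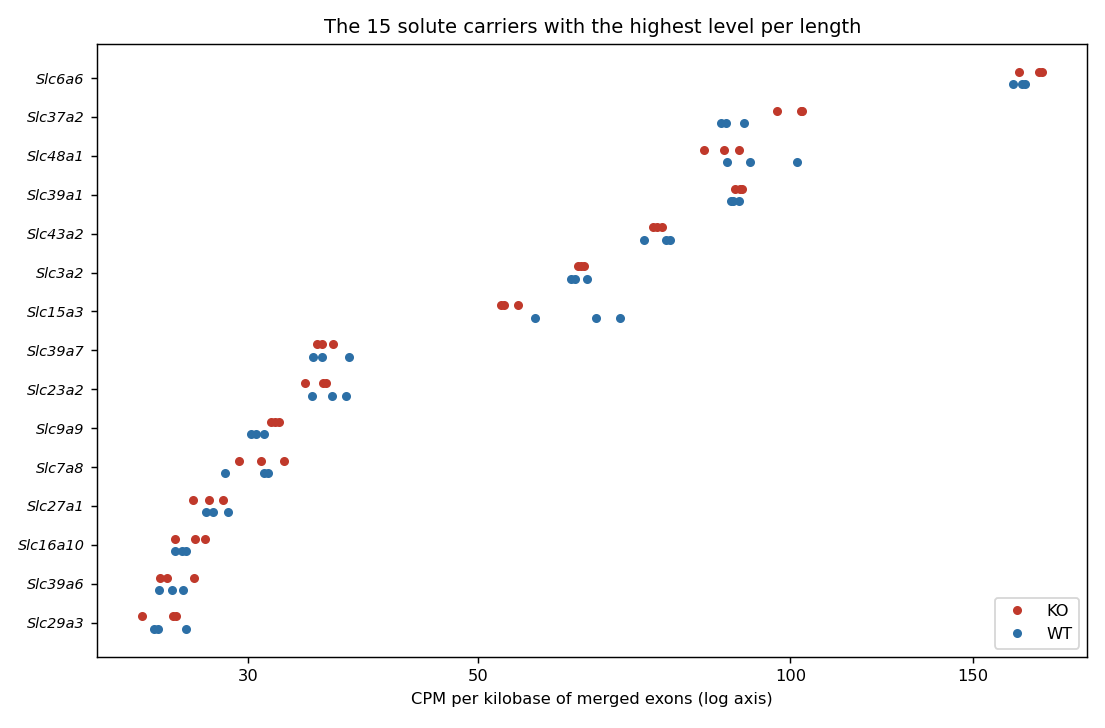
Level of the 15 solute carriers with the highest mean level per length, in CPM per kilobase of merged exons on a log axis; each point is 1 sample, with KO drawn above WT. The KO and WT points of most genes interleave, while those of Slc37a2 and Slc9a9 (higher in KO) and of Slc15a3 (lower in KO) do not overlap.

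Metal carriers held the one member that fell. Slc39a10 encodes ZIP10, a zinc importer of the plasma membrane. It stood at 87.3, 93.9 and 94.4 CPM in KO samples and at 108, 112 and 109 CPM in WT samples. Every KO sample was below every WT sample. The means were 91.9 ± 3.98 CPM in KO and 110 ± 2.25 CPM in WT (SD, n = 3 each, as elsewhere; log2 fold change -0.26, SE 0.0417, 95% interval -0.35 to -0.16; BH-adjusted p = 0.0262 by limma). An exact two-sided permutation test over the 20 labelings gave p = 0.1, which is as low as 2 groups of 3 can reach. Slc39a10 no longer passed when KO replicate 1 was left out (BH-adjusted p = 0.0859 by limma), without WT replicate 2 (0.136), without WT replicate 3 (0.112) and in a fit with no mean-variance trend (0.113), each time with the same direction.

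The other zinc carriers showed no common direction. Of 11 tested members of the importing Slc39 family 6 had a positive fold change, and of 6 members of the exporting Slc30 family 3 did; Slc39a10 was the only one past the test. Summed over the tested members, Slc39 genes stood at 692, 706 and 696 CPM in KO samples and at 703, 714 and 713 CPM in WT samples. Slc30 genes summed to 305, 302 and 308 CPM in KO samples and to 309, 307 and 309 CPM in WT samples. KO and WT samples overlapped in both sums. Slc39a1, the most abundant zinc importer by CPM, stood at 211 ± 1.83 CPM in KO and 209 ± 1.98 CPM in WT (BH-adjusted p = 0.895 by limma), and Slc30a1, the zinc exporter of the plasma membrane, at 81.1 ± 3.35 CPM in KO and 82.8 ± 2.86 CPM in WT (adjusted p = 0.837).

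Heme, copper and magnesium carriers did not pass the test. Slc48a1 stood at 246, 227 and 238 CPM in KO samples and at 239, 252 and 279 CPM in WT samples, which overlapped (log2 fold change -0.11, BH-adjusted p = 0.476 by limma). Its exons overlap those of Hdac7 on the opposite strand, and no strand setting is given in the sources used here, so shared reads make its value uncertain. The copper importer gene Slc31a1 averaged 85.7 ± 2.96 CPM in KO and 81.7 ± 1.76 CPM in WT (adjusted p = 0.540). Slc41a2, a magnesium carrier, stood at 62.8, 66.5 and 63.3 CPM in KO samples and at 67.5, 71.3 and 76.7 CPM in WT samples (log2 fold change -0.16, BH-adjusted p = 0.264 by limma). Its groups did not overlap. In the whole class of 23 tested metal and heme carriers, all 23 had a 95% interval within 0.5 of 0, and the median log2 fold change was 0.01.

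Sugar carriers held the one member that rose. Slc37a2 encodes an exchanger of sugar phosphate for phosphate in the endoplasmic reticulum that is abundant in macrophages and osteoclasts. It stood at 680, 645 and 682 CPM in KO samples and at 600, 570 and 576 CPM in WT samples. Every KO sample was above every WT sample. The means were 669 ± 20.8 CPM in KO and 582 ± 15.8 CPM in WT (SD, n = 3 each; log2 fold change 0.20, SE 0.0364, 95% interval 0.12 to 0.28; BH-adjusted p = 0.0430 by limma; exact permutation p = 0.1). Slc37a2 no longer passed when KO replicate 1 was left out (BH-adjusted p = 0.161 by limma), nor without KO replicate 3 (0.112), WT replicate 2 (0.187) or WT replicate 3 (0.195), under quantile normalization (0.0622) or with no mean-variance trend (0.167). An antisense gene model, Gm48081, shares exon sequence with Slc37a2 on the opposite strand.

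Its relative Slc37a4, the glucose-6-phosphate carrier of the same membrane, lay the other way without passing the test. Slc37a4 stood at 9.74, 9.85 and 8.67 CPM in KO samples and at 11.2, 11.7 and 12.0 CPM in WT samples, with every KO sample below every WT sample (log2 fold change -0.28, BH-adjusted p = 0.156 by limma). The log2 ratio of Slc37a2 to Slc37a4 within a sample was 6.15 ± 0.135 in KO and 5.64 ± 0.0860 in WT (SD, n = 3 each). This pair, like the other 2 pairs of relatives below, was chosen after its values were seen to lie apart in opposite directions, which fixes the separation of the ratio, so the ratios are descriptions with no test.

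Hexose and nucleotide sugar carriers did not pass the test. The Slc35 family, placed whole in the sugar class by its number, includes carriers that supply nucleotide sugars to the endoplasmic reticulum and Golgi. Its 20 tested members had log2 fold changes between -0.14 and 0.17, with 11 positive and a median of 0.00. They summed to 820, 802 and 849 CPM in KO samples and to 797, 811 and 824 CPM in WT samples, which overlapped. Slc35f6, its most abundant member by CPM, stood at 109, 103 and 158 CPM in KO samples and at 104, 108 and 110 CPM in WT samples. KO replicate 3 stood apart, and the log2 fold change was 0.17 with all samples and -0.02 without it (by limma, BH-adjusted p = 0.666 and 0.904). Of the 4 tested members of the Slc2 family, Slc2a3, a glucose importer, had the largest fold change (0.27, BH-adjusted p = 0.467 by limma). It stood at 9.29, 7.23 and 6.80 CPM in KO samples and at 7.28, 5.25 and 6.29 CPM in WT samples, and its groups overlapped.

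**Figure D3:**
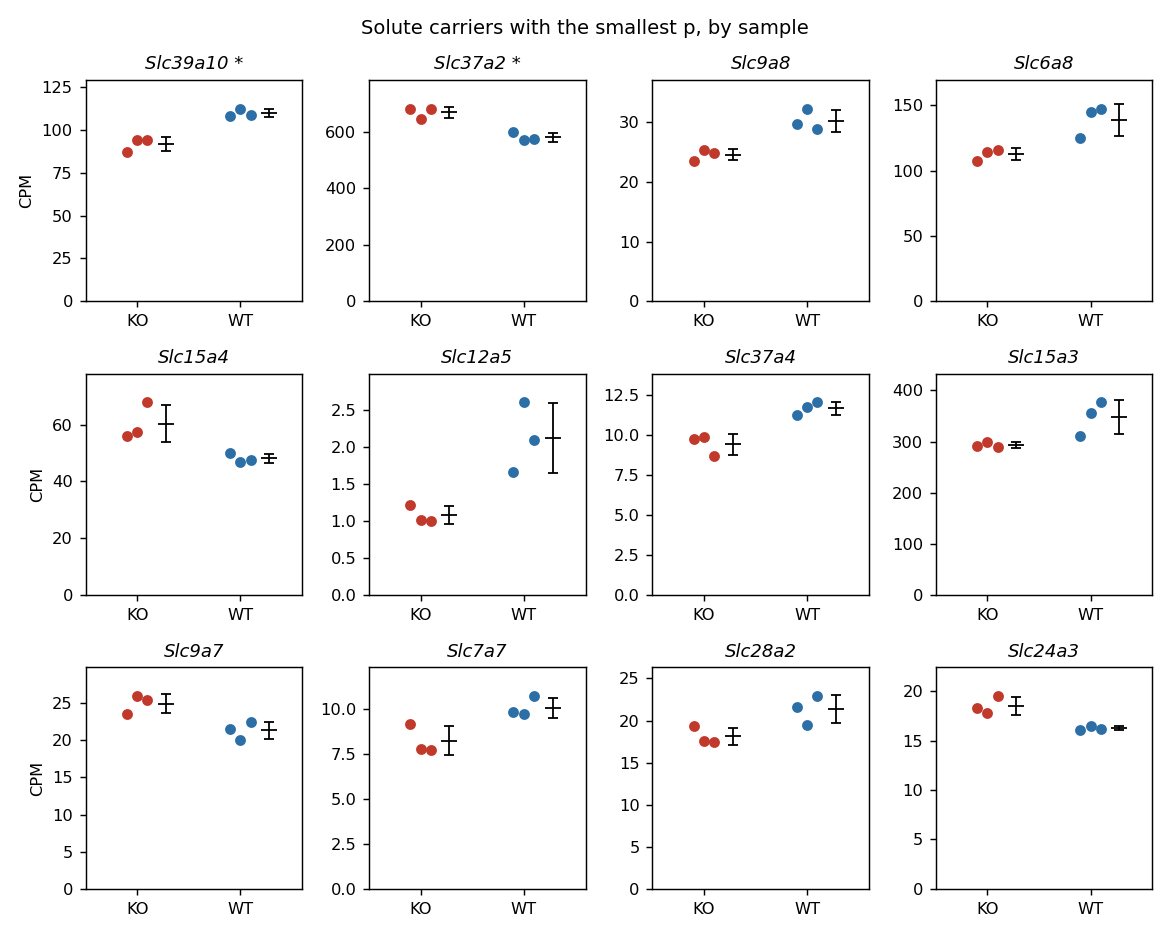
CPM in each sample of the 12 solute carriers with the smallest p, with KO in red on the left and WT in blue on the right of each panel; the bars are means ± SD of 3 samples, axes start at 0, and an asterisk marks the 2 members past the test. KO and WT samples overlap in none of the 12 panels, and in that of Slc28a2 the highest KO sample (19.3) lies just below the lowest WT sample (19.5).

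Amino acid and peptide carriers had 0 members past the test among 29, against 1.27% of all tested genes. Of the class, 6 members (20.7%), 2 higher in KO and 4 lower, reached an unadjusted p under 0.05, against 12.5% of all tested genes, with a median log2 fold change of 0.03 over the class. Slc6a8, the creatine carrier, came nearest. It stood at 108, 115 and 116 CPM in KO samples and at 125, 145 and 147 CPM in WT samples, with every KO sample below every WT sample. Its log2 fold change was -0.29 (SE 0.0643, BH-adjusted p = 0.0847 by limma), and it passed without WT replicate 1 (-0.37, adjusted p = 0.00868) and with a replicate block (adjusted p = 0.0294). WT replicate 1 was likewise the WT sample nearest to KO for Slc15a3 and Slc37a2 and in the sum of osteoclast markers, which is mostly Mmp9. It was also nearest to KO on component 1 of the members (0.27, against 1.07 and 0.89 in WT replicates 2 and 3). The same held on component 1 of all tested genes (9.06, against 12.6 and 10.6), so this position was general to that library. The part of the osteoclast markers was not tested.

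The lysosomal relatives Slc15a3 and Slc15a4, which both move histidine and small peptides into the cytosol, lay in opposite directions. Slc15a4 also serves as a platform for Toll-like receptor signalling. It stood at 55.9, 57.2 and 67.8 CPM in KO samples and at 49.9, 46.9 and 47.5 CPM in WT samples (log2 fold change 0.32, BH-adjusted p = 0.0998 by limma). Slc15a3 stood at 291, 300 and 289 CPM in KO samples and at 311, 357 and 376 CPM in WT samples (-0.24, BH-adjusted p = 0.157 by limma), and passed without WT replicate 1 (-0.32, adjusted p = 0.00848). KO and WT samples overlapped for neither gene. The log2 ratio of Slc15a4 to Slc15a3 was -2.38, -2.39 and -2.09 in KO samples and -2.64, -2.93 and -2.99 in WT samples. Exons of Slc15a3 overlap those of Tmem132a on the opposite strand, and those of Slc15a4 overlap Gm43474, so both values are uncertain to that extent.

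The 2 most abundant amino acid carriers by CPM had narrow intervals around 0. Slc6a6 averaged 1452 ± 40.0 CPM in KO and 1408 ± 18.5 CPM in WT (SD, n = 3 each; log2 fold change 0.04, 95% interval -0.03 to 0.12; BH-adjusted p = 0.658 by limma). Slc43a2 averaged 747 ± 6.79 CPM in KO and 752 ± 22.7 CPM in WT (-0.01, interval -0.09 to 0.07; adjusted p = 0.942). Among carriers of the lysosomal membrane, Slc38a7, which exports glutamine, stood at 52.2 ± 1.83 CPM in KO and 48.4 ± 1.40 CPM in WT (0.10, adjusted p = 0.386). Slc38a9, the arginine sensor of the mTORC1 pathway, stood at 33.1 ± 5.92 CPM in KO and 35.7 ± 3.41 CPM in WT (-0.11, BH-adjusted p = 0.755 by limma), and Slc66a1, a carrier of cationic amino acids, at 12.1 ± 0.334 CPM in KO and 11.8 ± 0.333 CPM in WT (0.03, adjusted p = 0.883).

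The heteromeric amino acid carriers pair the heavy chain Slc3a2 with a light chain. Slc3a2 stood at 223, 222 and 220 CPM in KO samples and at 219, 217 and 225 CPM in WT samples (BH-adjusted p = 0.929 by limma). Per kilobase, its level was 62.8 in KO and 62.4 in WT. The 4 light chains among the members described here, Slc7a5, Slc7a6, Slc7a7 and Slc7a8, together stood at 44.5 in KO and 44.1 in WT. Slc7a8 held most of that sum. Slc7a5, which imports large neutral amino acids, averaged 29.6 ± 0.872 CPM in KO and 26.8 ± 2.04 CPM in WT (log2 fold change 0.14, BH-adjusted p = 0.398 by limma). Slc7a7, which exports cationic amino acids, stood at 9.18, 7.81 and 7.76 CPM in KO samples and at 9.83, 9.73 and 10.7 CPM in WT samples, without overlap (-0.26, BH-adjusted p = 0.245 by limma). Exons of Slc7a7 overlap those of Oxa1l on the opposite strand.

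Of the 6 nucleoside and nucleotide carriers 0 passed the test, and 1 (16.7%) had an unadjusted p under 0.05, beside the same 12.5% of all tested genes. That was Slc28a2, which imports purine nucleosides with sodium. It stood at 19.3, 17.6 and 17.5 CPM in KO samples and at 21.7, 19.5 and 22.9 CPM in WT samples, so that the highest KO sample lay just below the lowest WT sample (log2 fold change -0.22, SE 0.0728, BH-adjusted p = 0.251 by limma). The mouse genome holds a close copy of this gene, Slc28a2b, and shared reads would make its value uncertain. Slc29a3, the equilibrative nucleoside carrier of the lysosome, was the most abundant of the class, with 138, 148 and 149 CPM in KO samples and 142, 143 and 152 CPM in WT samples (-0.01, 95% interval -0.11 to 0.09; BH-adjusted p = 0.964 by limma). Its relatives of the plasma membrane, Slc29a1 and Slc29a2, averaged 47.4 ± 2.30 and 1.64 ± 0.0502 CPM in KO and 50.6 ± 1.71 and 1.55 ± 0.348 CPM in WT (adjusted p = 0.496 and 0.897), and exons of the antisense gene model Gm17080 overlap Slc29a1. The purine nucleobase carrier Slc43a3 averaged 12.5 ± 2.11 CPM in KO and 12.1 ± 2.07 CPM in WT (BH-adjusted p = 0.922 by limma). Slc17a9, which loads ATP into vesicles, averaged 2.85 ± 0.295 CPM in KO and 2.84 ± 0.171 CPM in WT (adjusted p = 0.998).

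Ion and pH carriers had no member past the test among 21, against 1.27% of all tested genes. An unadjusted p under 0.05 by limma was reached by 4 (19%), 2 higher and 2 lower, against 12.5% of all tested genes. KO and WT samples did not overlap for 6 (28.6%), 3 higher and 3 lower, against 17.7%. In this class 2 exchangers of the Golgi lay in opposite directions. Slc9a8, a sodium-proton exchanger, stood at 23.6, 25.4 and 24.8 CPM in KO samples and at 29.7, 32.3 and 28.8 CPM in WT samples, with every KO sample below every WT sample (log2 fold change -0.29, SE 0.0589, BH-adjusted p = 0.0657 by limma). Slc9a7, its relative of the trans-Golgi network, stood at 23.5, 25.9 and 25.4 CPM in KO samples and at 21.4, 20.1 and 22.4 CPM in WT samples, with every KO sample above every WT sample (0.22, adjusted p = 0.203). The log2 ratio of Slc9a7 to Slc9a8 was 0.02 ± 0.0220 in KO and -0.51 ± 0.166 in WT (SD, n = 3 each). Slc9a9, the endosomal exchanger with the highest CPM of the family, averaged 181 ± 1.49 CPM in KO and 174 ± 2.58 CPM in WT (0.06, BH-adjusted p = 0.503 by limma).

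Slc12a5, a potassium-chloride carrier known from neurons, lay near the filter, with 1.22, 1.02 and 1.00 CPM in KO samples and 1.66, 2.60 and 2.09 CPM in WT samples. On the log2(CPM + 1) scale it had the largest absolute fold change of any tested member (-0.57, SE 0.138). That scale understates the change between its means, 1.08 CPM in KO and 2.12 CPM in WT. The groups did not overlap, and by limma its BH-adjusted p was 0.119.

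Carriers of phosphate and monocarboxylates (7 tested) and of lipids, vitamins and organic ions (22 tested) had 0 members past the test. They also had 0 with an unadjusted p under 0.05 by limma. Over all tested genes, 1.27% passed the test and 12.5% reached that unadjusted p. The median log2 fold changes of these carriers were -0.05 and -0.01. Slc16a7, which carries lactate and pyruvate, averaged 77.8 ± 1.67 CPM in KO and 71.5 ± 5.62 CPM in WT (0.12, BH-adjusted p = 0.428 by limma). Its family member Slc16a6 stood at 38.3 ± 0.580 CPM in KO and 42.0 ± 3.02 CPM in WT (-0.13, adjusted p = 0.404), and exons of Amz2 and Arsg overlap it on the opposite strand. The phosphate importer gene Slc20a1 averaged 67.3 ± 4.81 CPM in KO and 69.8 ± 4.22 CPM in WT (-0.05, adjusted p = 0.786). The ascorbate carrier Slc23a2 averaged 279 ± 6.96 CPM in KO and 286 ± 10.8 CPM in WT (-0.04, BH-adjusted p = 0.749 by limma), and Slc27a1, a fatty acid carrier, 160 ± 5.42 CPM in KO and 163 ± 4.10 CPM in WT (-0.02, adjusted p = 0.861). Slc49a3 and the vesicular amine carrier Slc18a1 had fold changes of 0.44 and 0.24, at means of 3.52 and 2.67 CPM in KO and 2.32 and 2.12 CPM in WT (by limma, BH-adjusted p = 0.478 and 0.458).

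Of the symbols that encode no carrier, Slc4a1ap averaged 28.3 ± 0.858 CPM in KO and 26.9 ± 2.09 CPM in WT (BH-adjusted p = 0.699 by limma), and Slc7a6os 10.9 ± 0.380 CPM in KO and 10.7 ± 0.220 CPM in WT (adjusted p = 0.896).

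Genes that work beside the carriers did not pass the test either. Of 48 listed partner genes, covering metal buffering, amino acid sensing, nucleoside and sugar use, and carriers named otherwise, 44 were tested and 0 passed (limma, BH-adjusted), against 1.27% of all tested genes. An unadjusted p under 0.05 was reached by 9 of the 44 (20.5%), 5 higher and 4 lower, against 12.5% of all tested genes. The zinc-binding metallothionein genes Mt1 and Mt2 averaged 82.7 ± 4.05 and 19.0 ± 0.798 CPM in KO and 83.1 ± 7.31 and 19.7 ± 3.13 CPM in WT (adjusted p = 0.985 and 0.901). Mtf1, the zinc-sensing transcription factor, stood at 31.9 ± 2.22 CPM in KO and 36.5 ± 1.44 CPM in WT (log2 fold change -0.19, BH-adjusted p = 0.245 by limma). Asns, asparagine synthetase, stood at 91.4 ± 1.14 CPM in KO and 81.9 ± 4.15 CPM in WT (0.16, adjusted p = 0.184), and its activator Atf4 at 151 ± 3.39 CPM in KO and 143 ± 1.16 CPM in WT (0.08, adjusted p = 0.342). Pnp, which splits purine nucleosides, stood at 69.4 ± 4.57 CPM in KO and 60.3 ± 2.80 CPM in WT (0.20, BH-adjusted p = 0.192 by limma).

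Both members past the test have other genes past the test nearby. By GENCODE M21 on GRCm38, not the GRCm39 build that the submitters' processing notes name, Slc39a10 lies on chromosome 1 at 46807544 to 46892852 and Slc37a2 on chromosome 9 at 37227585 to 37255738, both on the minus strand. The tested gene next to Slc39a10 is the iron exporter gene Slc40a1, 0.90 Mb away, which rose (log2 fold change 0.25, BH-adjusted p = 0.0219 by limma), and Col3a1, 4 tested genes away, fell (-1.92, adjusted p = 0.0133). Clmp, 9 tested genes from Slc37a2, rose (2.15, adjusted p = 8.7e-06). Of all 142 tested members 19 (13.4%) had a gene past the test within 10 tested genes, as did 16.5% of the 11279 tested genes with a position. The part of gene position in these 2 values was not tested.

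**Figure D4:**
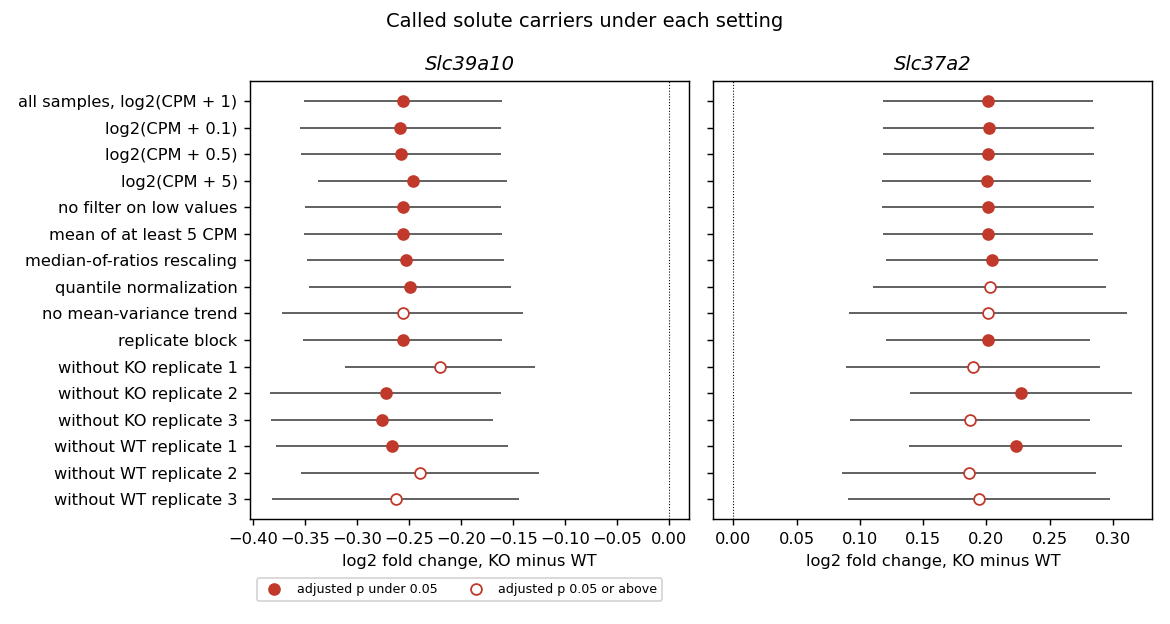
Log2 fold change, KO minus WT, of Slc39a10 and Slc37a2 with its 95% interval under each setting; filled points had a BH-adjusted p under 0.05 and open points did not. Every estimate keeps its sign, while the call is lost in several of the fits with 5 samples.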

How the data were processed

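RNA sequencing of 6 BMDM libraries, 3 KO and 3 WT by the genotype in their labels, was analysed from 1 table. The authors deposited CPM per gene, per the file headers. The columns sum to between 989223 and 1018258, so they carry a scaling between libraries that is not described. The submitters' processing notes name GRCm39; aligner, counter, annotation and strand setting are not given in the sources used here. Low values did not resolve into whole reads, so no count test was run. The table also holds 1 unlabelled p-value that the authors deposited beside a gene, which was not used. No other sample column was left unused (0), and no 2 columns were identical.

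Genes at 1 CPM or more in 3 or more samples were compared as log2(CPM + 1), a scale that understates the change of low genes, by a linear model with moderated variance and a mean-variance trend (limma 3.58.1, R 4.3.3), fitted on the whole table with BH adjustment over it. The model was tested on simulated data. Substrate classes followed family number with a few gene exceptions. The text names members past the test, all nucleoside carriers, and the 2 most abundant and 2 lowest-p members of each other class, with the Slc3a2 partners; others were picked with their values in view. A gene that the rule names is not reported here. The members and lists were chosen with earlier results of these data known. Lengths, positions and UTRs came from GENCODE M21 on GRCm38, which matched 155 of 155 members, and microRNA sequences from RefSeq. Tables were handled in Python 3.11.15.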

Additional observations from a re-analysis of the deposited data

How the results depend on the processing

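Slc39a10 and Slc37a2 kept their direction in all 15 alternatives, and 0 of the named genes past the test reversed. The 2 calls among members held with pseudocounts of 0.1, 0.5 and 5, with no filter or a mean of at least 5 CPM, and with median-of-ratios rescaling. Quantile normalization left 1 call among members (0 higher; 0 in the sugar class). Without a mean-variance trend 74 of all tested genes and 0 members passed (0 higher, 0 lower, 0 in the metal and sugar classes). Whether the numbers of the replicates pair the samples is not given. Deviations of same-numbered samples correlated between 0.000154 and 0.0834, and those of other-numbered samples between -0.0819 and 0.0285. KO samples 2 and 3 correlated best with the WT sample of their own number, and KO sample 1 did not. With a replicate block 2 members were lower and 1 amino acid carrier, Slc6a8, passed. Leaving out 1 library gave between 55 and 243 genes past the test, between 0 and 4 members (higher between 0 and 1, lower between 0 and 3), between 0 and 2 amino acid carriers, and between 0 and 1 in the metal and in the sugar class. No member passed without KO replicate 1, WT replicate 2 or WT replicate 3, and 4 did without WT replicate 1. The median log2 fold change of amino acid carriers, 0.0294 with all settings as reported, was 0.0199 with no filter, 0.0150 at a mean of at least 5 CPM, and between 0.0012 and 0.0243 without 1 library. That of nucleoside carriers was -0.0503 at a mean of at least 5 CPM and between -0.0491 and 0.0048 without 1 library, and that of lipid and vitamin carriers between -0.0222 and 0.0231. Each fit without 1 library rests on 5 samples, and the one without WT replicate 1 had more genes past the test (243) than the fit with all samples (147). Why calls were lost or gained was not tested. Signs of named genes that did not pass changed in 18 fits, at log2 fold changes of at most 0.0814 in size. With depth in reads unknown, members under about 5 CPM are bounded least.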

Other observations

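The 13 members under the filter stood between 0.159 and 1.91 CPM in every sample, and none of the 13 was listed at 0. Among them, Slc45a3 stood at 0.476, 0.243 and 0.413 CPM in KO samples and at 0.678, 0.775 and 0.731 CPM in WT samples, with every KO sample below every WT sample. Slc22a18 stood at 1.17, 0.983 and 1.16 CPM in KO samples and at 0.666, 0.822 and 0.981 CPM in WT samples, with every KO sample above every WT sample. Slc13a3, a carrier of dicarboxylates that was tested, stood at 1.83, 3.21 and 1.57 CPM in KO samples, with KO replicate 2 apart, and at 1.68, 1.63 and 1.59 CPM in WT samples. These genes were chosen after their values were seen, and low values such as these are the least precise in the table.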
